A study of Sus scrofa with 15 samples.

Results

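The genes described here are 45 porcine genes of DNA replication and cell division, chosen by function: 14 that copy DNA or supply its building blocks, 6 cyclin-dependent kinases, cyclins and their CKS partners, 10 that control entry into and exit from mitosis, 11 of the kinetochore and spindle, and 4 proliferation, chromatin and tubulin genes. All 45 had a row among the 29886 genes of the count table, and 38 passed the filter on low counts. CKS2 was singled out with its higher level in liver CD8α-high NK cells already known, so its liver CD8α-high to blood difference is given as a description and nothing is read from its test. The questions were whether any of the NK cell populations showed the transcripts of dividing cells, and whether CKS2 moved with the other genes or alone.

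The libraries came from 5 pigs aged 6 months, for which the labels name no treatment or genotype. From each pig 3 sorted populations were sequenced at the 3′ ends of mRNA: conventional NK cells of the blood (CD8α-high), NK cells of the liver with a high CD8α level (CD8α-high), and liver-resident NK cells with a low CD8α level (CD8α-dim, lrNK). All 3 were gated as cells without the T cell receptor subunit CD3 and without the myeloid protein CD172a, the liver cells coming from a flush of the vessels of the organ. Values are CPM, counts scaled to a common library size, which for 3′ libraries do not scale with transcript length, and each mean is given ± SD over 5 pigs.

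A cell that enters the cycle makes cyclins, which switch on cyclin-dependent kinases. The kinases release E2F transcription factors from the RB family, and E2F targets such as the MCM helicase, PCNA and ribonucleotide reductase then build the replication machinery of S phase. In G2 and M phase the genes for CDK1, its B-type cyclins, the Aurora and Polo kinases and the spindle motors follow. CKS1B and CKS2 are small proteins that bind cyclin-dependent kinases and help them to choose substrates. Resting NK cells in blood rarely divide, and cytokines can bring them into the cycle.

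Library totals lay between 2003499 and 5680221 counts, with a median of 3749615 in blood, 3877028 in liver CD8α-high and 2407859 in lrNK. The 8 NK cell markers (NCR1, KLRK1, KLRB1, NKG7, PRF1, GZMB, EOMES, TBX21) summed to 3169 to 4488 CPM in blood, 3498 to 4261 in liver CD8α-high and 3188 to 5967 in lrNK. Each hepatocyte and endothelial marker summed to at most 40 counts over the 5 libraries of any population, the myeloid markers CSF1R and CD163 and the T cell markers CD4 and CD5 were at 0 throughout, and the myeloid marker LYZ summed to 41 counts in blood, 6 in liver CD8α-high and 140 in lrNK. The lrNK libraries held more transcripts of B cell and plasma cell markers. Of the B cell markers 4 of 5 rose against both other populations, while CD79A was at 0 in all libraries. Their summed levels were 214 to 685 CPM in lrNK against 10.9 to 109 in blood and 0 to 44.2 in liver CD8α-high. The 4 plasma cell markers summed to 95.1 to 448 CPM in lrNK, 13.3 to 57.5 in blood and 4.06 to 21.6 in liver CD8α-high, and 2 of the 3 tested rose against blood. The T cell markers, CD3G making up most of their sum, came to 110 to 593 CPM in lrNK, 637 to 1203 in blood and 714 to 1076 in liver CD8α-high. CD3G fell in lrNK against both, CD3E averaged 10.2 CPM in blood and 2.12 in lrNK (adjusted p = 0.301), and CD3D went the other way, with 3.78 CPM in blood and 8.43 in lrNK (adjusted p = 0.188, higher in 4 of 5 pigs).

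The cell cycle genes were present at low levels in all 3 populations. The median of their means was 7.13 CPM over the 45 genes and 12.8 CPM over the 38 tested, against 27.4 CPM over all 10939 genes tested. Only 10 of the 45 lay above that last value, 25 had a mean under 10 CPM, and 17 had 0 counts in at least 1 library. By population the median of the means was 4.92 CPM in blood, 9.01 in liver CD8α-high and 8.70 in lrNK. In sorted bulk cells a smaller share of dividing cells and less RNA per dividing cell cannot be told apart.

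The genes with the lowest levels were mitotic. CDC20, the activator of the anaphase-promoting complex, had 3 counts in 1 liver CD8α-high library and 0 in the other 14 libraries. The B-type cyclins that activate CDK1 gave few counts: CCNB1 summed to 19 counts over the blood libraries, 26 over the liver CD8α-high and 51 over the lrNK libraries, and CCNB2 to 12, 50 and 48. The mitotic kinase AURKA summed to 8, 52 and 30 counts, the checkpoint kinase BUB1 to 11, 58 and 36, the mitotic entry factor CDCA3 to 13, 22 and 37, and the kinetochore subunit NDC80 to 6, 46 and 29 counts in blood, liver CD8α-high and lrNK. These 7 genes were under the filter and had no test, and their counts are too few to order the populations library by library. At the other end 3 genes passed 100 CPM: STMN1 (a tubulin-binding protein), HMGB2 (a chromatin protein) and GINS2 (a helicase subunit). GINS2 shares 8574 annotated bases with GSE1, and whether counting used the strand is not given in the sources used here, so its level is uncertain.

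CKS2 was higher in the liver than in the blood of every pig, and higher in liver CD8α-high than in lrNK. In blood the 5 pigs had 27.9, 35.9, 26.1, 38.7 and 29.7 CPM of CKS2 (31.6 ± 5.40). In liver CD8α-high the same pigs had 63.2, 128.2, 82.0, 71.7 and 80.7 CPM (85.2 ± 25.2). In lrNK they had 49.4, 49.9, 52.6, 41.0 and 53.0 CPM (49.2 ± 4.85). The 3 sets of values did not overlap, with lrNK between the others, and the libraries held 87 to 486 counts of the gene. The difference of liver CD8α-high from blood was 1.43 on the log2 scale (SE 0.21), a ratio of means of 2.69. lrNK exceeded blood by 0.64 (SE 0.21, edgeR quasi-likelihood test, Benjamini-Hochberg adjusted p = 0.0397) and lay below liver CD8α-high by a log2 change of -0.79 (SE 0.21, adjusted p = 0.0117), lower in 5 of 5 pigs. Each of these comparisons shares 1 side, the blood or the liver CD8α-high libraries, with the difference that singled the gene out, so neither p-value is independent of that choice. The lrNK to blood call was lost when pig 1, 2, 3 or 5 was left out (adjusted p between 0.0534 and 0.147), and the call against liver CD8α-high was lost without pig 2 (-0.60, adjusted p = 0.0996). CKS2 lies at chr14:904762-910292 (Sscrofa11.1) and shares 4158 annotated bases with LOC102165122, which averaged 2.32 CPM.

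**Figure D1:**
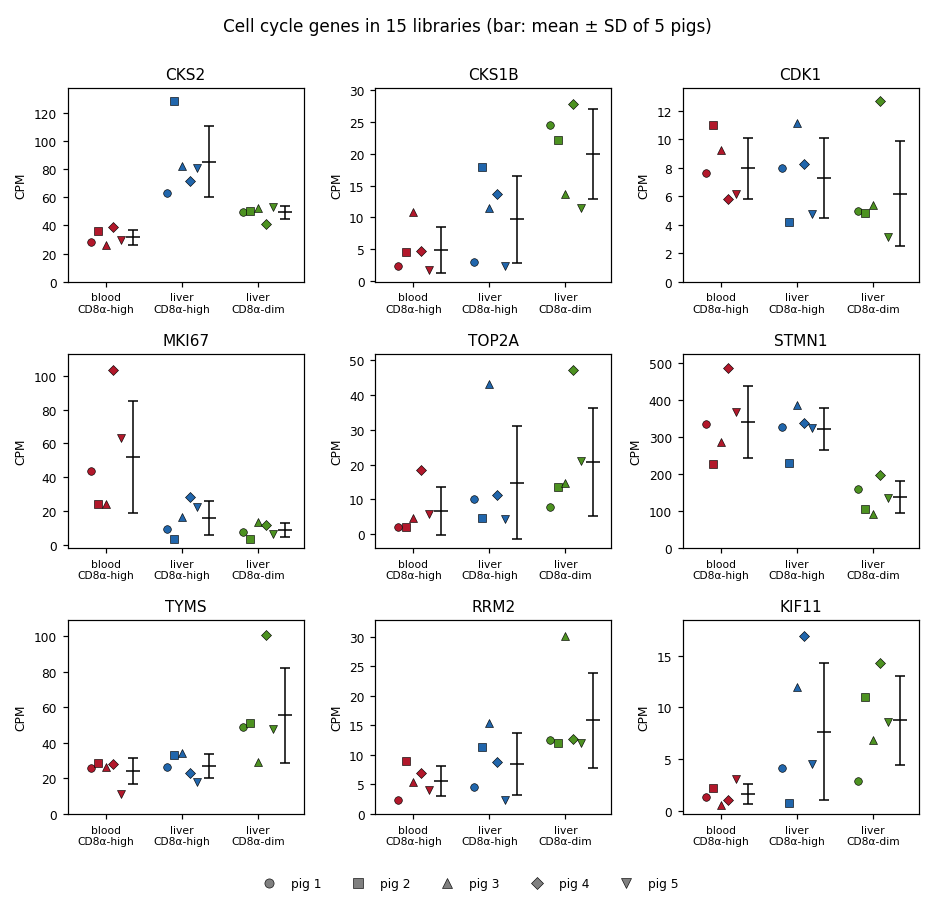
Levels (CPM, linear axis) of 9 cell cycle genes in the 15 libraries, with 1 symbol shape per pig and a bar for the mean ± SD of 5 pigs beside each population. CKS2 separates the 3 populations, CKS1B and TYMS are highest in lrNK, MKI67 is highest in blood, STMN1 is lowest in lrNK, and CDK1 overlaps in all 3.

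Most of the other genes also had higher values in liver CD8α-high than in blood, and none of them passed the test. Of the 37 others, 30 had a log2 fold change above 0, with a median of 0.49 against -0.02 for all genes, a description of genes that in part passed the filter through the liver libraries. CKS1B, MCM3, UHRF1, TPX2, KIF20A and ASPM were higher in 5 of 5 pigs, and MKI67 was lower in 5 of 5. edgeR and DESeq2 called 0 of the 37 in either direction, where edgeR called 0.0457% of all genes tested higher and 0.0183% lower, and 0 of the 37 were without overlap of the libraries, against 2.01% of all genes. CKS2 is among the 5 genes called higher in this comparison, which is how it was chosen. With so few calls among all genes, the absence of calls among the 37 does not show that they did not differ. At an unadjusted p under 0.05 (edgeR) stood UHRF1, CENPF and KIF11, with log2 fold changes of 1.44 (SE 0.66), 1.10 (SE 0.49) and 2.21 (SE 0.74), and MKI67, which had -1.67 (SE 0.48) and the lowest adjusted p of the 37 (0.544). In single pigs, 22 to 29 of the 37 were higher in liver CD8α-high than in blood.

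CKS1B, the paralog of CKS2, had its highest mean in lrNK. It had 2.44, 4.66, 10.8, 4.70 and 1.71 CPM in the blood of pigs 1 to 5 (4.87 ± 3.60). It had 3.11, 17.9, 11.4, 13.6 and 2.39 CPM in liver CD8α-high (9.70 ± 6.76) and 24.5, 22.1, 13.6, 27.8 and 11.5 CPM in lrNK (19.9 ± 7.04). Blood and lrNK did not overlap, while liver CD8α-high spanned both. The rise of CKS1B in lrNK against blood was 2.01 (SE 0.57, adjusted p = 0.0163, higher in 5 of 5 pigs). For liver CD8α-high against blood the value was 0.99 (SE 0.56, adjusted p = 1.00, higher in 5 of 5 pigs), and for lrNK against liver CD8α-high 1.03 (SE 0.55, adjusted p = 0.256). The mean of CKS2, by contrast, was highest in liver CD8α-high. Without pig 1, 2 or 4 the CKS1B call against blood was lost (adjusted p up to 0.0883). It lies at chr4:94815769-94819583 and shares 1358 bases with SHC1, whose log2 fold change in lrNK against blood was 0.56 (adjusted p = 0.518).

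The kinase that CKS proteins bind in mitosis did not pass the test in any comparison. CDK1 averaged 7.94 ± 2.17 CPM in blood, 7.27 ± 2.83 in liver CD8α-high and 6.18 ± 3.71 in lrNK, and its log2 fold change in lrNK against blood was -0.35 (SE 0.50, adjusted p = 0.704). CCNA2, the cyclin of S and G2 phase, ranged from 0 to 6.87 CPM in blood and from 2.88 to 11.2 CPM in lrNK, with a log2 fold change of 0.75 (SE 0.92, adjusted p = 0.651). It shares 619 annotated bases with EXOSC9, which averaged 29.4 CPM.

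The comparison of lrNK with blood gave the most calls among the cell cycle genes, some higher and some lower. TYMS, RRM2, CKS1B, CKS2 and KIF11 rose, and MKI67 and STMN1 fell. These are 5 of 38 higher and 2 of 38 lower, where 8.62% of all genes tested were called higher and 9.6% lower. In either direction 18.4% of the 38 genes were called, against 18.2% of all genes tested, so the number of calls is no result about these genes as a group. Without CKS2, 4 were higher and 2 lower, or 16.2% of 37. Leaving out 1 pig at a time gave 3 to 5 calls, with 3 without pig 4 and 4 without pig 2. Of the 38, 6 were higher and 2 were lower without overlap of the libraries, against 13.5% of all genes in either direction. As a description, 31 of the 38 fold changes were above 0, with a median of 0.74 and a range of -2.56 to 2.72, against a median of 0.01 and 50.4% above 0 for all genes. Of the 38, 19 were below the level of the filter in at least 1 blood library and so passed it in part through the liver libraries, so the tally is no support for a direction. With no filter, 37 of all 45 genes were above 0, with a median of 0.93. Between 21 and 29 of the 38 were higher in lrNK than in the blood of the same pig. B cell and plasma cell markers rose in the same libraries, and their part in these values was not tested.

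**Figure D2:**
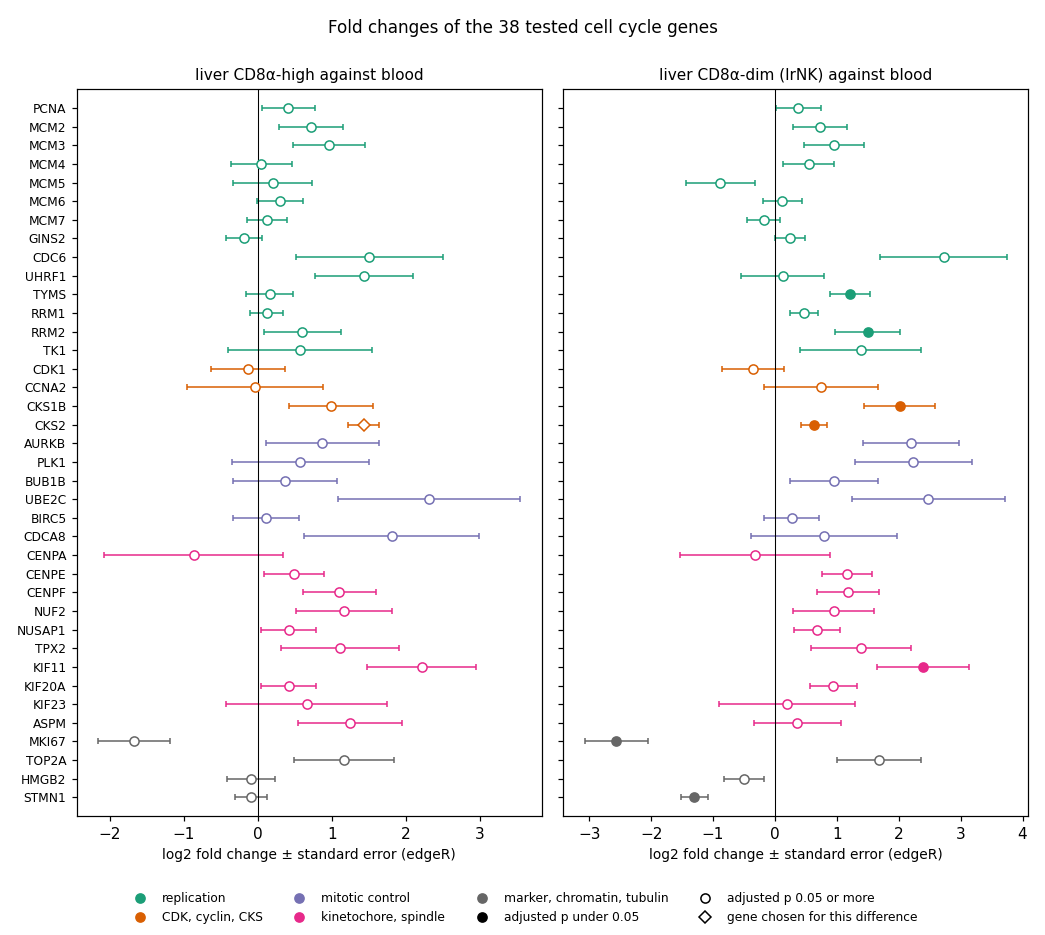
Log2 fold changes (x axis) of the 38 tested genes in liver CD8α-high against blood and lrNK against blood, from edgeR, with bars of ± 1 standard error, coloured by role, and filled where the adjusted p was under 0.05, except that CKS2 in the left panel (1.43), which was called and was chosen for this difference, is an open diamond. No other point is filled there. In the right panel 7 points are filled, and both panels share the blood libraries.

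Among the 14 replication genes, both that were called higher in lrNK, TYMS and RRM2, supply nucleotides. So do RRM1 and TK1, which were not called. TK1 had a log2 fold change of 1.38 against blood (SE 0.98, adjusted p = 0.385, edgeR). TYMS makes thymidylate for DNA synthesis. Its level in blood was 25.7, 28.5, 26.6, 27.8 and 11.3 CPM (24.0 ± 7.19). In liver CD8α-high it was 26.6, 33.0, 34.3, 22.9 and 17.7 CPM (26.9 ± 6.94), and in lrNK 49.0, 50.9, 29.2, 100.5 and 47.8 CPM (55.5 ± 26.7). Pig 4 held the highest lrNK value, and every lrNK library exceeded every blood library. TYMS rose in lrNK by 1.21 against blood (SE 0.32, adjusted p = 0.00938) and by 1.05 against liver CD8α-high (SE 0.31, adjusted p = 0.0267, higher in 4 of 5 pigs). The first call was lost without pig 4 (0.94, adjusted p = 0.0672), and the second when pig 1, 2, 4 or 5 was left out (adjusted p up to 0.235). The gene is at chr6:105642730-105660279.

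RRM2, the regulated subunit of ribonucleotide reductase, lay at the threshold. It had 2.44, 9.04, 5.43, 6.87 and 4.09 CPM in blood (5.57 ± 2.54). The lrNK libraries had 12.5, 12.0, 30.2, 12.6 and 12.0 CPM (15.9 ± 8.02), so that 4 lrNK libraries agreed closely and pig 3 stood above them. The liver CD8α-high libraries had 4.49, 11.3, 15.3, 8.79 and 2.39 CPM (8.47 ± 5.20) and overlapped both. RRM2 rose against blood by 1.497 (SE 0.52, adjusted p = 0.04995), a call lost on leaving out any 1 of the 5 pigs (adjusted p between 0.0596 and 0.197). Its constitutive partner RRM1 averaged 81.2 ± 15.6 CPM in blood, 88.0 ± 11.7 in liver CD8α-high and 112.5 ± 43.5 in lrNK, a log2 fold change of 0.47 against blood (SE 0.23, adjusted p = 0.174).

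PCNA and the MCM subunits gave no call. PCNA, the sliding clamp of the replicative polymerases, averaged 26.3 ± 3.99 CPM in blood, 34.9 ± 12.1 in liver CD8α-high and 33.9 ± 24.6 in lrNK, and 1 lrNK library (pig 4, 76.4 CPM) set most of the last spread. Of the 6 MCM helicase subunits on the list none was called in any comparison. In lrNK against blood, MCM3 had the highest log2 fold change of them (0.95, SE 0.48, adjusted p = 0.202) and MCM5 the lowest (-0.88, SE 0.56, adjusted p = 0.317, lower in 5 of 5 pigs). The helicase loader CDC6 had the highest fitted value of all 38 genes in this comparison (2.72, SE 1.02, adjusted p = 0.0703) from levels of 0 to 4.34 CPM in blood and 2.88 to 21.9 CPM in lrNK, and it was called by DESeq2 (2.79, adjusted p = 0.0301) and by edgeR without pig 1. Over the 14 replication genes the median log2 fold change was 0.51 in lrNK against blood, 0.36 in liver CD8α-high against blood and 0.19 in lrNK against liver CD8α-high.

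Mitotic control genes sat low, and edgeR called 0 of the 6 that could be tested, with 2 at an unadjusted p under 0.05 in lrNK against blood and DESeq2 calling AURKB there. The direction of their fold changes against blood is partly fixed, since such genes passed the filter in part through the liver libraries. AURKB, the kinase of the chromosomal passenger complex, had 3.52, 0.822, 4.88, 0 and 0.341 CPM in blood (1.91 ± 2.17). It had 3.45, 3.16, 5.86, 3.62 and 1.91 CPM in liver CD8α-high (3.60 ± 1.43) and 7.48, 10.6, 10.7, 5.90 and 10.7 CPM in lrNK (9.07 ± 2.25). The lrNK libraries lay above all others, but the difference from blood did not pass the test (2.19, SE 0.78, adjusted p = 0.0548). It passed with the replicate block, which compares the populations within pigs (2.69, adjusted p = 0.0321). AURKB shares 72 annotated bases with each of the tRNA genes TRNAD-GUC, TRNAG-UCC, TRNAW-CCA and TRNAP-CGG. TRNAD-GUC averaged 58.1 CPM and TRNAG-UCC 30.9 CPM, so the AURKB level is uncertain. BIRC5, its partner in the complex, averaged 13.0 CPM in blood, 13.97 in liver CD8α-high and 15.7 in lrNK (adjusted p = 0.745 for lrNK against blood). PLK1, the Polo kinase, ranged from 0 to 2.71 CPM in blood and from 2.88 to 9.83 CPM in lrNK (2.24, SE 0.94, adjusted p = 0.108).

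KIF11, the motor that separates the spindle poles, was the only called gene of the 10 tested for the kinetochore and spindle. Blood had 1.35, 2.19, 0.543, 1.08 and 3.07 CPM (1.65 ± 0.99). lrNK had 2.91, 11.04, 6.82, 14.3 and 8.62 CPM (8.74 ± 4.31) and liver CD8α-high 4.14, 0.791, 12.0, 16.9 and 4.54 CPM (7.67 ± 6.58). Its lrNK value of pig 1 lay within the blood range, and liver CD8α-high spread more widely than either. KIF11 rose in lrNK by 2.39 against blood (SE 0.74, adjusted p = 0.0275, higher in 5 of 5 pigs), and the call was lost with the replicate block (2.22, adjusted p = 0.0558) and without pig 3 or 4 (adjusted p up to 0.143). CENPE, a kinetochore motor, was next (1.17, SE 0.41, adjusted p = 0.0509) and passed with the block (1.27, adjusted p = 0.0158). CENPF, a kinetochore protein, averaged 9.55 ± 4.73 CPM in blood, 20.4 ± 10.7 in liver CD8α-high and 21.5 ± 11.6 in lrNK (1.18 in lrNK against blood, SE 0.49, adjusted p = 0.109). NUSAP1, which bundles spindle microtubules, averaged 14.9 CPM in blood, 19.9 in liver CD8α-high and 23.6 in lrNK (0.68, SE 0.37, adjusted p = 0.233). Its level is uncertain, since it shares 17581 annotated bases with OIP5, which averaged 907 CPM, and 738 with NDUFAF1, which rose in lrNK against blood (1.14, adjusted p = 0.0157).

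MKI67, which encodes the proliferation antigen Ki-67, went the other way from most of these genes. Blood libraries had 43.6, 24.4, 24.1, 103.4 and 63.5 CPM (51.8 ± 33.1). Liver CD8α-high libraries had 9.32, 3.43, 16.7, 28.3 and 22.7 CPM (16.1 ± 9.98), and lrNK libraries 7.89, 3.36, 13.6, 11.8 and 6.79 CPM (8.70 ± 4.09). In each pig blood was highest and lrNK lowest, and the ranges of blood and lrNK did not overlap. MKI67 fell in lrNK against blood by 2.56 on the log2 scale (SE 0.51, adjusted p = 0.00109), a call that held in each of the 11 alternative fits. The other comparisons did not pass the test: -1.67 for liver CD8α-high against blood (SE 0.48, adjusted p = 0.544, lower in 5 of 5 pigs) and -0.90 for lrNK against liver CD8α-high (SE 0.50, adjusted p = 0.287, lower in 5 of 5 pigs). MKI67 lies at chr14:137266622-137296312 with no overlapping gene. Blood of pig 4, its highest library, also held 313 CPM of erythroid markers, against 0 to 6.03 CPM in the other blood libraries. Blood of pig 5, with 63.5 CPM of MKI67, held 0 CPM of them. The part of erythroid cells in these values was not tested.

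TOP2A, the topoisomerase that separates replicated DNA, differed from MKI67 in sign. It had 2.17, 2.19, 4.61, 18.4 and 5.80 CPM in blood (6.64 ± 6.78). It had 10.01, 4.75, 43.2, 11.4 and 4.30 CPM in liver CD8α-high (14.7 ± 16.2) and 7.89, 13.4, 14.6, 47.2 and 20.9 CPM in lrNK (20.8 ± 15.5). In each pig lrNK exceeded blood although the ranges overlapped, and the highest library was that of pig 4 in blood and lrNK and of pig 3 in liver CD8α-high. The lrNK to blood value was 1.68 (SE 0.68, adjusted p = 0.0976), and with the replicate block it passed the test (1.84, adjusted p = 0.0241).

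STMN1 fell in lrNK against both other populations. Its levels were 335.7, 227.2, 284.9, 487.1 and 367.1 CPM in blood (340.4 ± 97.7). They were 326.3, 228.1, 385.6, 338.3 and 324.4 CPM in liver CD8α-high (320.5 ± 57.3) and 159.1, 104.2, 92.1, 198.0 and 134.5 CPM in lrNK (138 ± 42.8). The lrNK values lay below every other library, and the CD8α-high populations overlapped. The log2 fold change of lrNK was -1.30 against blood (SE 0.22, adjusted p = 2.07e-04), and -1.22 against liver CD8α-high (SE 0.22, adjusted p = 4.94e-04), and both calls held in each of the 11 alternative fits. STMN1 lies at chr6:83356404-83362546. HMGB2 averaged 295 ± 154 CPM in blood, 277 ± 56.2 in liver CD8α-high and 208 ± 99.7 in lrNK, and did not pass the test (lrNK against blood -0.50, SE 0.32, adjusted p = 0.334). The T cell markers CD3G, which fell, and CD3D, which averaged higher, moved in different directions in the same lrNK libraries, and the part of T cells in these values was not tested.

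Between the liver populations few of the genes were called, and the number of calls is no result about these genes as a group. Of the 38 genes, TYMS rose in lrNK and CKS2 and STMN1 fell, which is 1 higher and 2 lower, where 6.96% of all genes tested were called higher and 7.68% lower, or 7.89% of the 38 in either direction against 14.6% of all genes. Without CKS2, whose level in liver CD8α-high singled it out, 1 was higher and 1 lower, or 5.41% of 37. Libraries did not overlap for AURKB (higher in lrNK), CKS2 and STMN1 (lower), against 11.9% of all genes. Fold changes above 0 numbered 23 of 38, with a median of 0.17 against 0.02 for all genes. UHRF1, which keeps DNA methylation through replication, was lower in lrNK in 5 of 5 pigs without passing the test (-1.31, SE 0.66, adjusted p = 0.223).

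The summed levels of the roles did not all go the same way in lrNK, and they are given without a test. The 10 mitotic control genes summed to 21.7, 18.6, 27.9, 27.5 and 22.5 CPM in blood, 43.2, 19.0, 61.9, 52.7 and 17.2 CPM in liver CD8α-high and 31.1, 31.7, 61.4, 64.3 and 59.5 CPM in lrNK. The 11 kinetochore and spindle genes summed to 66.9, 58.7, 58.9, 75.2 and 54.9 CPM in blood, 119.5, 53.8, 140.0, 134.3 and 86.9 CPM in liver CD8α-high and 162.4, 95.5, 76.0, 168.8 and 116.2 CPM in lrNK. For both roles every lrNK library exceeded every blood library, and liver CD8α-high overlapped both. The 6 CDK, cyclin and CKS genes came to 49.9 ± 5.20 CPM in blood, 108.9 ± 27.7 in liver CD8α-high and 88.6 ± 8.86 in lrNK, without overlap between blood and either liver population. Most of this sum is CKS2, which was chosen for its liver CD8α-high to blood difference. The lack of overlap is therefore no result about the role. The sum of the 4 proliferation, chromatin and tubulin genes went the other way, with a mean of 694 CPM in blood, 629 in liver CD8α-high and 375 in lrNK. It was lower in lrNK than in blood in 5 of 5 pigs. Most of it is STMN1 and HMGB2, and TOP2A alone was higher in lrNK than in blood in 5 of 5 pigs. Adding MKI67 and TOP2A to the mitotic, kinetochore and spindle genes gave 103.9 to 224.4 CPM in blood and 144.0 to 292.1 CPM in lrNK, which overlapped, with lrNK higher in 5 of 5 pigs.

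The 14 replication genes summed to 363.7 to 517.5 CPM in blood, 420.1 to 518.9 in liver CD8α-high and 392.1 to 715.2 in lrNK, higher than blood in 4 of 5 pigs in each liver population. Without GINS2 and RRM1, the most abundant of them, the sums were 156.0 to 259.8 CPM in blood, 191.3 to 330.9 in liver CD8α-high and 228.5 to 450.7 in lrNK, higher than blood in 5 of 5 pigs in each. All these ranges overlapped. B cell markers in lrNK summed to 432.8, 632.1, 213.8, 684.7 and 251.3 CPM in pigs 1 to 5, and plasma cell markers to 95.1 to 448 CPM, and the part of such cells in the sums was not tested.

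**Figure D3:**
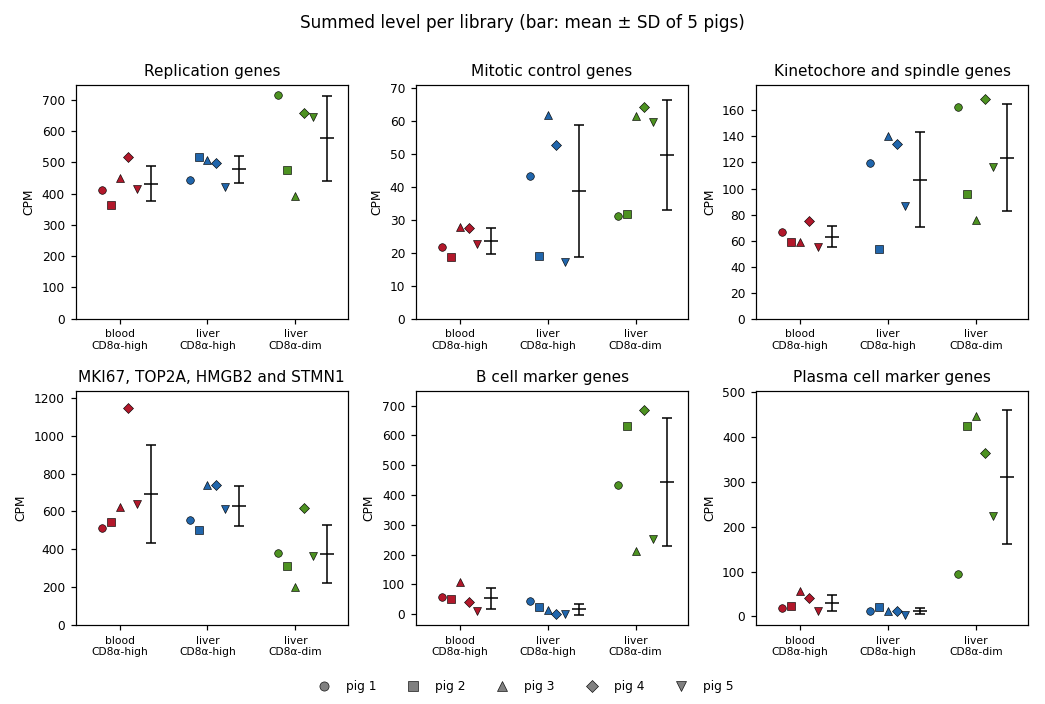
Summed levels (CPM, linear axes) per library of 4 of the 5 roles of cell cycle genes (all but the CDK, cyclin and CKS genes) and of the B cell and plasma cell markers, with 1 symbol shape per pig and a bar for the mean ± SD of 5 pigs. lrNK lies above blood without overlap for mitotic control and for kinetochore and spindle genes and for both marker lists, and overlaps it for replication genes. The sum of MKI67, TOP2A, HMGB2 and STMN1, most of which is STMN1 and HMGB2, has its lowest mean in lrNK (375 CPM against 694 in blood).

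The regulators around these genes were read from a further 106 cell cycle genes chosen by function, of which 105 were in the table and 91 were tested. In lrNK 7 were called higher and 6 lower than in blood, and 4 higher and 6 lower than in liver CD8α-high. These are 7.69% and 6.59% of the 91 against blood, where all genes gave 8.62% and 9.6%, and 4.40% and 6.59% against liver CD8α-high, where all genes gave 6.96% and 7.68%, so these counts are no result about the regulators as a group. Leaving out pig 4 left 8 calls against blood, and leaving out pig 1, 2 or 4 left 6 against liver CD8α-high. In liver CD8α-high against blood edgeR and DESeq2 called 0 of the 91, with 8 at an unadjusted p under 0.05 (edgeR), and CDK6 had the lowest adjusted p (0.544). By group, the lrNK to blood calls were 1 higher and 2 lower of 11 G1 cyclins, CDKs and CDC25 phosphatases, 2 higher and 2 lower of 9 CDK inhibitors and RB family genes, 1 higher of 11 E2F and MuvB genes, 2 higher and 1 lower of 33 fork and origin genes, 0 of 5 checkpoint kinases (2 at an unadjusted p under 0.05) and 1 higher and 1 lower of 22 other mitotic genes.

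E2F2 and the pocket protein genes RB1 and RBL1 were higher in lrNK, while E2F1 and the pocket protein gene RBL2 were not called in any comparison. E2F1 averaged 2.73 CPM in blood, 6.06 in liver CD8α-high and 1.06 in lrNK. Its log2 fold change in lrNK was -1.35 against blood (adjusted p = 0.316, edgeR) and -2.49 against liver CD8α-high (adjusted p = 0.0547, edgeR). RBL2 averaged 138.4, 134.8 and 124.5 CPM in the same order. E2F2, an E2F that activates S phase genes, had 4.34, 9.87, 3.26, 10.5 and 10.9 CPM in blood (7.77 ± 3.67). It had 21.1, 4.75, 7.81, 2.24 and 3.82 CPM in liver CD8α-high (7.94 ± 7.61) and 81.4, 35.5, 89.1, 50.8 and 41.0 CPM in lrNK (59.6 ± 24.2). The lrNK libraries did not overlap the others, and the rise was 2.94 against blood (SE 0.51, adjusted p = 2.46e-04) and 2.94 against liver CD8α-high (adjusted p = 2.93e-04). Pocket proteins hold E2F factors in check. RB1 averaged 41.9 ± 4.77 CPM in blood, 49.7 ± 12.0 in liver CD8α-high and 126 ± 49.3 in lrNK (1.59 against blood, SE 0.25, adjusted p = 7.13e-05). It shares 4609 bases with LPAR6, which rose by 2.68 (adjusted p = 1.07e-05), so the RB1 level is uncertain. RBL1 averaged 26.2 ± 3.81, 45.2 ± 2.32 and 78.7 ± 33.7 CPM in blood, liver CD8α-high and lrNK (1.59 against blood, SE 0.27, adjusted p = 2.32e-04, higher in 5 of 5 pigs). Against liver CD8α-high the RBL1 value was 0.80 (SE 0.27, adjusted p = 0.0472, edgeR, higher in 4 of 5 pigs).

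CDKN1B and CDC25B, which act on CDKs in opposite ways, were lower in lrNK than in both other populations. CDKN1B, the CDK inhibitor p27, averaged 178 ± 33.8 CPM in blood, 162 ± 17.0 in liver CD8α-high and 68.6 ± 34.2 in lrNK, a log2 fold change of -1.37 against blood (SE 0.30, adjusted p = 0.00246) and -1.23 against liver CD8α-high (adjusted p = 0.00688). CDC25B, the phosphatase that activates CDK1, had 333, 258, 356, 221 and 205 CPM in blood (275 ± 67.2). It had 168, 114, 214, 134 and 180 CPM in liver CD8α-high (162 ± 39.3) and 62.3, 44.2, 59.9, 26.1 and 29.2 CPM in lrNK (44.4 ± 16.8). lrNK lay below every other library, at -2.64 against blood (SE 0.26, adjusted p = 1.99e-07) and -1.88 against liver CD8α-high (SE 0.25, adjusted p = 1.72e-05). CDKN2D, another CDK inhibitor, was lower in lrNK than in liver CD8α-high (-0.78, SE 0.20, adjusted p = 0.00895).

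Of the remaining regulators, ORC5, an origin recognition subunit, averaged 3.85 CPM in blood, 11.5 in liver CD8α-high and 20.5 in lrNK (2.41 against blood, SE 0.52, adjusted p = 0.00206). POLD3, a subunit of DNA polymerase delta, averaged 50.5, 58.1 and 25.1 CPM in the same order (-0.995 against blood, adjusted p = 0.00925, and -1.20 against liver CD8α-high, adjusted p = 0.00251). ANLN, the cytokinesis scaffold anillin, fell from 31.8 CPM in blood to 3.87 in lrNK (-2.96, SE 0.79, adjusted p = 0.0105), with 15.1 CPM in liver CD8α-high, the order that MKI67 also had. The other called genes, which did not move the same way in all 5 pigs or were outside the largest changes, were named after their values had been seen. They were CDK6 (1.11), CHAF1A (0.82) and DLGAP5, higher in lrNK than in blood, CCND3 (-0.60) and CDKN1C (-1.94), lower than in blood and than in liver CD8α-high, and RFC3 (1.14), higher than in liver CD8α-high. DLGAP5 had 0 to 1 count in each blood library and 0 to 42 in the lrNK libraries, so no fold is given.

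**Figure D4:**
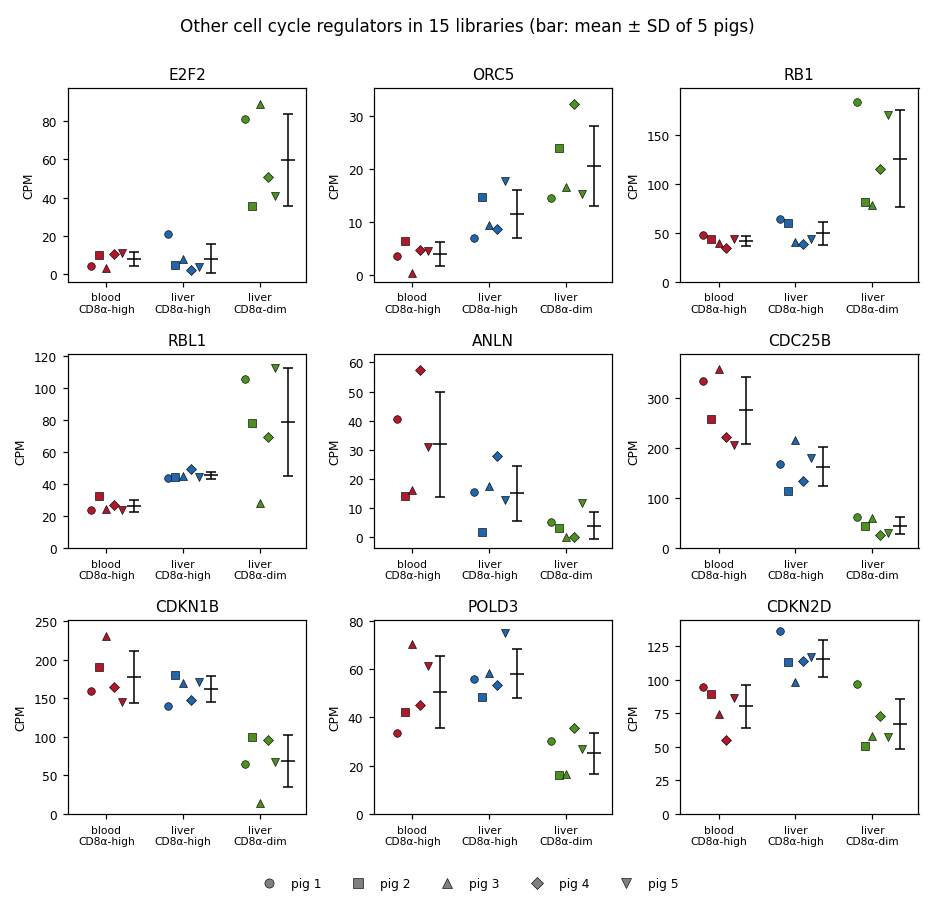
Levels (CPM, linear axes) of 9 further cell cycle regulators in the 15 libraries, with 1 symbol shape per pig and a bar for the mean ± SD of 5 pigs. E2F2, ORC5, RB1 and RBL1 have their highest means in lrNK, and ANLN, CDC25B, CDKN1B and POLD3 their lowest, with CDC25B at 26.1 to 62.3 CPM there against 205 to 356 CPM in blood.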

How the data were processed

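RNA of the 15 sorted populations was made into 3′ libraries and sequenced by the authors. Per the labels and methods, reads were trimmed with QuasR and aligned to Sscrofa11.1 with Rhisat2; the counting tool, its use of strand and its treatment of shared reads are not given in the sources used here. The deposited values are raw counts per gene, 1 column per library. Counts were tested with edgeR 4.0.16 (R 4.3.3): TMM scaling, filterByExpr by population, 1 quasi-likelihood fit over all 15 libraries, Benjamini-Hochberg adjustment over 10939 genes, threshold 0.05. CPM use TMM-adjusted library totals. A standard error is the log2 fold change divided by the square root of F. Alternatives were DESeq2 1.42.0, its size factors in edgeR, no filter, at least 10 counts in 5 libraries, only the populations compared, the replicate block, and leaving out each pig. The scripts were tested on simulated data.

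The populations of 1 pig share a donor number in the labels and come from the same animal, which pairs the samples. Deviations from the population means correlated at 0.107 on average within pigs and at -0.0265 between pigs. No 2 libraries of a population agreed within sampling noise. Members, lists and rules were chosen with earlier results of these data known. Named were CKS2, CKS1B, MKI67, TOP2A, CDK1, PCNA, members called in any comparison, the 2 most abundant members per role, members under the filter, and of the 106 regulators the 4 largest rises and 4 largest falls per comparison among called genes that moved the same way in 5 pigs. Other members are named as examples after their values were seen. Positions are from RefSeq (Sscrofa11.1), which the table was matched to by symbol. HBA1 and CDKN2A were not analysed here, since no row carries these symbols.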

Additional observations from a re-analysis of the deposited data

Results flagged for a closer look

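Among 69 groups of 5 libraries, 12 held a library that stood apart from the 4 others, where chance gives about 1 in 20 groups. In lrNK, pig 4 held 76.4 CPM of PCNA (others 14.9 to 31.2) and 12.6 CPM of CDK1 (others 3.13 to 5.36), and pig 3 held 30.2 CPM of RRM2 (others 12.0 to 12.6) and 9.74 CPM of CCNB2 (others 1.66 to 3.37). In liver CD8α-high, pig 3 held 43.2 CPM of TOP2A (others 4.30 to 11.4), 7.81 CPM of NDC80 (others 0 to 1.91) and 6.13 CPM of CDCA3, which was at 0 in the others. Pig 2 held 128.2 CPM of CKS2 there (others 63.2 to 82.0). In blood, pig 4 held 18.4 CPM of TOP2A (others 2.17 to 5.80) and 3.61 CPM of CDCA3 (others 0 to 0.822), pig 5 held 11.3 CPM of TYMS (others 25.7 to 28.5), and pig 3 held 1.36 CPM of NDC80 (others 0 to 0.361). The CDCA3, NDC80 and CCNB2 values rest on few counts. Of the 12, 11 were the highest library of their group.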

How the results depend on the processing

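Besides the difference for which CKS2 was chosen, the 10 called differences of named members were recomputed under 11 alternatives each: of 110 values 85 kept their call, 25 lost it and 0 changed sign. With the replicate block, which pairs populations within pigs, 9 members were called in lrNK against blood, 1 in liver CD8α-high against blood and 3 between the liver populations, and beside the 4 changes given with AURKB, CENPE, KIF11 and TOP2A it changed no other call of a member. DESeq2 called 10 (also CDC6, AURKB and CENPE), 1 and 3. CKS2 in lrNK against blood lost its call with no filter on low counts (0.62, adjusted p = 0.0867) and with only the populations compared (0.64, adjusted p = 0.0726), and the cause was not tested. Leaving out 1 pig at a time, CKS2 was between 0.55 and 0.78 in lrNK against blood, 1.29 and 1.57 in liver CD8α-high against blood and -0.88 and -0.60 between the liver populations. The members called were then 3 to 5 (3 without pig 4 and 4 without pig 2), 0 to 1 (CKS2, chosen for this difference, or none without pig 2 or 5) and 1 to 3 (1 without pig 2), and the regulators called 8 to 13 (8 without pig 4) and 6 to 8 (6 without pig 1, 2 or 4) for the lrNK comparisons.

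Sign changes came in differences that were not called, within these leave-out ranges: in lrNK against blood PCNA -0.10 to 0.59 and GINS2 -0.0405 to 0.45; in liver CD8α-high against blood RRM1 -0.0122 to 0.26, CDK1 -0.27 to 0.16, BIRC5 -0.26 to 0.35, HMGB2 -0.17 to 0.13 (0.0105 with the block) and STMN1 -0.22 to 0.0580; between the liver populations PCNA -0.42 to 0.12, CDK1 -0.62 to 0.0262, BIRC5 -0.18 to 0.41, CENPF -0.0675 to 0.33, KIF11 -0.20 to 0.47 and TOP2A -0.12 to 1.56. Of 440 such values 418 kept sign and side of the threshold. At these depths 7 of the 45 genes gave too few counts for a test, and whether depth or a low level set this was not tested.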
